A study of Mus musculus with 8 samples.

Results

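The 10 genes described here are those of steroid hormone synthesis in the Leydig cell of the testis and of its regulation: Scarb1, Star, Cyp11a1, Fdx1, Hsd3b1, Hsd3b6, Cyp17a1, Hsd17b3, Lhcgr and Insl3. They were chosen by name, with earlier results of these data known, and all 10 were found among the 55487 genes of the count table. RNA was sequenced from cells sorted from mouse testis by fluorescence and labelled as purified germ cells, with 4 libraries in each of 2 groups. The libraries labelled WT come from fetal C57BL/6 control littermates that carried the Oct4-eGFP reporter on both copies, and the libraries labelled KO from Rhox10-null mice with the same reporter on both copies. The reporter makes cells that use Oct4 regulatory sequences fluoresce green. The fetal age, and whether a library holds 1 animal or several, are not given in the sources used here, so p-values measure the spread between these libraries, which may be technical.

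Leydig cells lie between the seminiferous tubules and make androgens from cholesterol. Scarb1 takes up cholesterol ester, Star moves cholesterol into the mitochondrion, and Cyp11a1, fed with electrons through ferredoxin (Fdx1), cuts the side chain to give pregnenolone. Hsd3b enzymes and Cyp17a1 turn this into androstenedione, and Hsd17b3 makes testosterone. In the fetal mouse testis the last step is known to take place largely in Sertoli cells. Luteinizing hormone acts through Lhcgr, and Insl3 is the peptide hormone of Leydig cells that guides testis descent. Germ cells are not known as the main source of these transcripts in the testis, though counts from mixed cells do not show which cells a transcript came from.

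The libraries held 16346977 to 20311338 counts. Rhox10 had 18, 25, 19 and 17 counts in WT replicates 1 to 4 and 10 to 22 in the libraries labelled KO (log2 fold change -0.28, edgeR adjusted p = 0.767), so its counts do not settle the genotype labels. The label of purified germ cells was checked against marker genes. Ddx4, the germ-cell helicase gene, averaged 14.6 CPM per kb (CPM stands for the count scaled to library size; it is divided here by exon length), whereas Cyp17a1 averaged 452 CPM per kb, 31.0-fold the level of Ddx4. The Sertoli cell hormone gene Amh averaged 84.3 CPM per kb and the fibrous collagen gene Col1a1 447 CPM per kb. Germ-cell genes were thus present in every library beside abundant transcripts of Leydig, Sertoli and interstitial cells, and the libraries are called here by their labels only.

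With the WT label the members took 0.362 to 0.372% of all counts, and with the KO label 0.331 to 0.340%. Most of these counts belonged to few genes: Cyp17a1, Cyp11a1, Scarb1, Star and Hsd3b1 made up 92.6 to 93.1% of the member counts. Per length, the order of levels over all 8 libraries was Cyp17a1 (452 CPM per kb), Hsd3b1 (191), Cyp11a1 (145), Star (91.2), Scarb1 (68.5), Hsd17b3 (46.7), Fdx1 (32.1), Insl3 (17), Lhcgr (8.67) and Hsd3b6 (6.08). The ranges of neighbouring genes in this order did not overlap; Scarb1, for example, ran from 67.2 to 71.3 CPM per kb and Hsd17b3 from 43.9 to 49.2. Cyp17a1 exceeded the receptor gene Lhcgr 52.2-fold and Hsd17b3 9.69-fold per length.

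**Figure D1:**
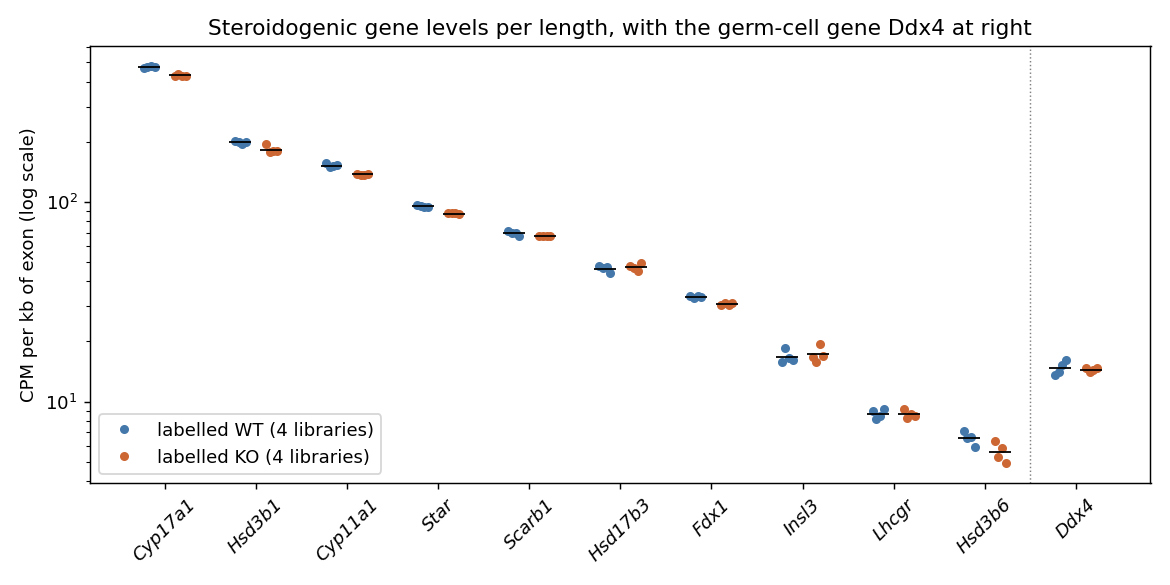
Level of each steroidogenic gene, in CPM per kb of exon on a log axis, for 4 libraries labelled WT (blue) and 4 labelled KO (orange), with the germ-cell gene Ddx4 at the right. Points are libraries and black bars are group means; Cyp17a1 stands at 427 to 480 CPM per kb and Ddx4 averages 14.6.

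In the GRCm38 annotation Scarb1 spans chr5:125277087-125341094, Star chr8:25806555-25815982, Cyp11a1 chr9:58006411-58027023 and Fdx1 chr9:51943306-51963556. Cyp17a1 spans chr19:46667165-46673172, Hsd17b3 chr13:64058266-64089230 and Lhcgr chr17:88716481-88791990. The place of Insl3 in the order of levels depends on how reads were counted. Insl3 lies on chromosome 8 from 71689214 to 71690575 (GRCm38), and 404 of its 623 exon bases are also exon bases of Jak3 on the same strand. In this table all 438 genes whose exons lie wholly under exons of a gene on the opposite strand had 0 counts in every library, as did all 736 genes wholly under exons on the same strand, against 19.4% of genes with no overlap. Reads in shared exon bases were therefore counted for neither gene, whatever the strand. Over the 219 bases of Insl3 that overlap no other gene its level was 48.4 CPM per kb, with Hsd17b3 at 46.7. Reads that cross from these bases into the shared ones may have been lost too. The value may thus be too low, and the order of Insl3 and Hsd17b3 is not settled. The counts of Insl3, 163 to 234 per library, come from the part of the transcript outside Jak3, 35.15% of its exon bases.

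Hsd3b1 and Hsd3b6 are neighbouring copies on chromosome 3, at 98852194 to 98859794 and 98805504 to 98814443. Hsd3b1 is known as the form of the fetal Leydig cell and Hsd3b6 as one that appears with the adult Leydig cell. Hsd3b1 was 31.4-fold higher per length than Hsd3b6. Of the 50-base windows of Hsd3b6 transcripts, 15.7% also occur in transcripts of other genes, mostly in Hsd3b2 (13.2%). For Hsd3b1 the share was 4.86%. Some counts of Hsd3b6 may thus stem from a copy, or some of its own reads may have gone uncounted. This was not tested. Hsd3b2 itself had 7 to 14 counts per library, and Hsd3b6 had 159 to 239. None of the windows of Star, Cyp17a1, Hsd17b3, Lhcgr or Fdx1 occurred elsewhere. The other copies were low, with Hsd3b5 at 8.39 ± 0.795 CPM and Hsd3b4 at 2.44 ± 0.862 CPM (SD, n = 4) with the WT label. Hsd3b7, an enzyme gene of bile acid synthesis whose exons are overlapped by other genes, is listed at 0.

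RefSeq start sites (GRCm38.p6) were given for 7 of the 10 members. The 250 bases upstream of the start are shown for the pair of Hsd3b copies, whose levels differ most among related members, and for Cyp11a1 and Lhcgr, the members whose windows hold the motif AGGTCA. This is the half-site that nuclear receptors such as the steroidogenic factor Nr5a1 bind. Both strands were searched; 14.02% of 32851 windows of the same length hold AGGTCA, and 1.33% hold the longer CAAGGTCA, which contains it. Capitals mark AGGTCA. The windows are chr9:58014702-58014951 (plus strand), chr17:88792015-88792264, chr3:98859795-98860044 and chr3:98814444-98814693 (all minus strand), each printed 5′ to 3′ with the gene.

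Cyp11a1: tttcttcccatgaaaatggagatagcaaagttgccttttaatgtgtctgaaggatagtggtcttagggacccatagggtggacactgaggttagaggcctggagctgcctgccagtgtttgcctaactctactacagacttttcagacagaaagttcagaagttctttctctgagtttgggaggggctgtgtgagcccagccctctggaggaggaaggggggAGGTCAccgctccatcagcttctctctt
Lhcgr: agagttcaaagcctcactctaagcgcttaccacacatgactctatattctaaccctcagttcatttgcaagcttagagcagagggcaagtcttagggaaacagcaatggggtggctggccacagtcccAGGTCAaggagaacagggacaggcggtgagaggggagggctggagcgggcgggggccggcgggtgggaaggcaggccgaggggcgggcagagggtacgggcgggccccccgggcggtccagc
Hsd3b1: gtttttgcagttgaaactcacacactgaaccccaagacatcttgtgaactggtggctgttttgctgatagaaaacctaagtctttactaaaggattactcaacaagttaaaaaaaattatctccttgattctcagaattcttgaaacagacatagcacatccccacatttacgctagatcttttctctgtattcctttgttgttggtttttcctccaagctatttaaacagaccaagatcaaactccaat
Hsd3b6: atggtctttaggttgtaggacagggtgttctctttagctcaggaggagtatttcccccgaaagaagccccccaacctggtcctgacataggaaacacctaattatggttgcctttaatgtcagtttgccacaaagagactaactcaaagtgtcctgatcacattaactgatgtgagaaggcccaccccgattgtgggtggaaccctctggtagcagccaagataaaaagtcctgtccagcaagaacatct

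Cyp11a1 has a second start site in RefSeq, whose window does not hold the motif. The motif begins 28 bases before the start shown for Cyp11a1 and 122 bases before that of Lhcgr. CAAGGTCA was in none of the 7 members' windows. The longest run of letters that the windows of Hsd3b1 and Hsd3b6 share is 7 bases.

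The comparison of labels asked whether the libraries labelled Rhox10-null hold the same amount of these transcripts. Star, Cyp11a1, Fdx1, Hsd3b1 and Cyp17a1 were lower with the KO label, with changes of -7.78 to -9.70%. Scarb1, Hsd3b6, Hsd17b3, Lhcgr and Insl3 did not pass, and their groups overlapped. Of the 10 members 5 were lower, none was higher and 5 did not pass at a Benjamini-Hochberg adjusted p under 0.05 in edgeR's quasi-likelihood test over all 23190 genes tested, where 5.14% of genes were called and 2.8% were called lower and 2.35% higher (649 lower and 544 higher, or 836 lower and 426 higher with library totals alone as the scaling). None of the members was higher at an unadjusted p under 0.05 either, or by DESeq2 or limma voom. All 10 members passed the filter on low counts. Among the 5418 more abundant genes (mean log2 CPM at or above 5), where small differences are easier to call, 11.6% were called and 7.22% were called lower. The members were chosen with earlier results of these data known, so setting them beside these shares is a description and no test. The median log2 fold change of the 10 members was -0.12, with 8 below 0, beside 0.00 over all genes tested. In bulk RNA fewer cells of a type and less RNA per cell cannot be told apart.

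Scarb1, the cholesterol ester receptor gene, had 606, 596, 592 and 574 CPM in WT replicates 1 to 4 and 573, 575, 572 and 572 CPM in KO replicates 1 to 4. The KO libraries lay at the lower edge of the WT range and the groups overlapped. The log2 fold change was -0.05 (95% interval -0.09 to -0.01, edgeR adjusted p = 0.211), though limma voom called it (adjusted p = 0.0327). Star, the gene of the protein that carries cholesterol into the mitochondrion, had 397, 392, 387 and 388 CPM in the libraries labelled WT and 362, 359.8, 360.0 and 357 CPM in those labelled KO. Every KO library was below every WT library. Means were 391 ± 4.62 and 359.6 ± 2.02 CPM (SD, n = 4), a log2 fold change of -0.12 (standard error 0.02, edgeR adjusted p = 1.63e-05).

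Cyp11a1, the side-chain cleavage enzyme gene, had 749, 717, 722 and 733 CPM with the WT label and 666, 655, 656 and 659.8 CPM with the KO label. Its change, -9.70%, was the largest among the called members (log2 fold change -0.15, standard error 0.02, edgeR adjusted p = 2.81e-10), and its groups did not overlap. Fdx1, which encodes the ferredoxin that hands electrons to Cyp11a1, had 105, 102, 104 and 104 CPM with the WT label and 94.3, 97.2, 94.7 and 96.3 CPM with the KO label. These groups did not overlap either. Its log2 fold change was -0.12 (standard error 0.03, edgeR adjusted p = 0.0210). It did not pass when WT replicate 1 (adjusted p = 0.0551) or 3 (0.0529) or KO replicate 1 (0.0561) or 3 (0.0670) was left out, or with no filter on low counts (0.0501).

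Hsd3b1 had 375, 368, 363 and 371 CPM in the libraries labelled WT and 361, 328, 334 and 333 CPM in those labelled KO. KO replicate 1 stood close to the lowest WT library, and the other KO libraries stood well below. The log2 fold change was -0.12 (standard error 0.02, edgeR adjusted p = 1.91e-05). Its copy Hsd3b6 had 12.9, 11.8, 12 and 10.6 CPM with the WT label and 11.4, 9.50, 10.5 and 8.87 CPM with the KO label. The groups overlapped, and the log2 fold change of -0.24 (95% interval -0.43 to -0.04) did not pass (edgeR adjusted p = 0.173).

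Cyp17a1, the gene of the enzyme that gives the androgen precursors, was the most abundant member, with 1304, 1316, 1330 and 1305 CPM with the WT label. The libraries labelled KO had 1184, 1208, 1182 and 1185 CPM, all below the WT range. Means were 1314 ± 11.9 and 1190 ± 12.4 CPM (SD, n = 4), and the log2 fold change was -0.14 (standard error 0.02, edgeR adjusted p = 7.51e-12).

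Hsd17b3, the testosterone-forming enzyme gene, had 66.4, 64.6, 65.4 and 61.1 CPM with the WT label and 66.4, 64.8, 62.3 and 68.4 CPM with the KO label. The groups overlapped, with KO replicate 4 above and WT replicate 4 below all libraries of the other group, and the 95% interval of its log2 fold change ran from -0.06 to 0.11 (edgeR adjusted p = 0.854). Lhcgr, the luteinizing hormone receptor gene, had 68.4, 62.8, 64.6 and 70.2 CPM with the WT label and 70.4, 62.9, 66.4 and 64.5 CPM with the KO label. Here too the groups overlapped (95% interval -0.09 to 0.07, edgeR adjusted p = 0.959), and its sign changed with the scaling, so it has no direction. Insl3 had 9.81, 11.6, 10.3 and 10.1 CPM with the WT label and 10.5, 9.86, 12.1 and 10.6 CPM with the KO label. Its interval, -0.16 to 0.23, also covers falls of the size seen for Cyp17a1 (edgeR adjusted p = 0.910).

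**Figure D2:**
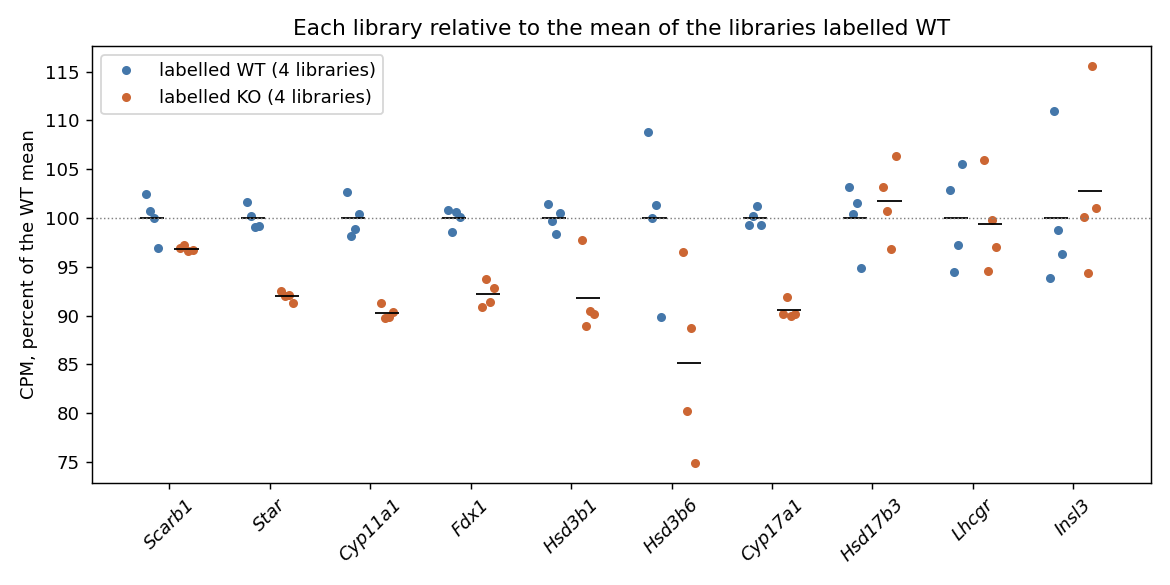
CPM of each member in each library, as a percent of the mean of the 4 libraries labelled WT. Points are libraries (blue WT, orange KO) and black bars are group means. Star, Cyp11a1, Fdx1, Hsd3b1 and Cyp17a1 lie lower with the KO label without overlap, and Hsd17b3, Lhcgr and Insl3 overlap.

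Groups did not overlap for 5 of the 10 members, all 5 with KO below WT. This was so for 4.72% of all genes tested and for 9.08% of the more abundant genes. In either direction the groups were apart for 9.44% of all genes. These shares too are a description, since the members were chosen with earlier results known. To compare members without any scaling between libraries, the other 9 members were set against Cyp17a1, the most abundant, within each library, a comparison chosen after the values were seen. For every 100 counts of Cyp17a1 there were 54.3 to 57.5 counts of Cyp11a1 with the WT label and 54.2 to 56.3 with the KO label, and for Star 29.1 to 30.5 and 29.8 to 30.6. These ratios overlapped, as did those of Hsd3b1 and Fdx1. For Hsd17b3 the ranges were 4.68 to 5.09 and 5.27 to 5.78, which do not overlap. For Scarb1 the ranges were 43.9 to 46.5 and 47.6 to 48.4, again apart. Cyp17a1 was itself lower with the KO label, so a member that fell less, or not at all, has a higher ratio. How many of all genes tested would be apart when set against Cyp17a1 was not counted. An exact two-sided permutation test of the log2 ratio over 70 splits gave p = 0.0286 for each of Hsd17b3 and Scarb1, the smallest p this design allows, and 0.129 once adjusted over the 9 ratios tested. The ratios of Lhcgr, Insl3 and Hsd3b6 overlapped between the groups (adjusted exact p = 0.154, 0.154 and 0.441). With this smallest p, at least 6 of the 9 ratios would have to reach it for an adjusted p under 0.05, so these adjusted values say little on whether members differ in how much they changed.

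The partners of these genes were counted in 8 lists of 75 genes in all, of which 71 had enough counts to be tested. Of these 8 were lower, 2 were higher and 61 did not pass, with a median log2 fold change of -0.03. For these counts and those of each list below, the share over all genes tested was 5.14% called, 2.8% lower and 2.35% higher. Of the 5418 more abundant genes 11.6% were called and 7.22% were called lower. In the list of cholesterol supply and transport 0 of 10 genes passed in edgeR; 1 of the 10 had an unadjusted p under 0.05, and DESeq2 and limma voom called none. The member with the smallest p was Acsl4, a fatty acid ligase gene of steroid-forming cells, at 61.0 ± 0.954 and 56.7 ± 2.66 CPM (adjusted p = 0.191). Next came Lipe, the hormone-sensitive lipase gene, at 12.8 ± 1.32 and 11.7 ± 0.471 CPM (adjusted p = 0.549). Of 4 electron transfer partners Fdxr, the ferredoxin reductase gene, fell by 0.13 on the log2 scale (standard error 0.03, edgeR adjusted p = 0.00129) and the other 3, among them Por, the reductase gene of Cyp17a1, did not pass.

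Among 17 other steroid enzymes, 14 of them tested, 1 was lower. It was Hsd17b1, an estradiol-forming enzyme gene also known from fetal Sertoli cells, at 28.0 ± 0.805 CPM with the WT label and 22.95 ± 1.47 CPM with the KO label (log2 fold change -0.29, edgeR adjusted p = 6.71e-04). The aromatase gene Cyp19a1 and Hsd11b1 were too low to test, and the estrogen sulfotransferase gene Sult1e1 is listed at 0. None of 4 tested Hsd3b copies passed in edgeR, at an unadjusted p under 0.05 or by DESeq2 or limma voom; the smallest adjusted p was 0.835 for Hsd3b5, followed by Hsd3b3 (0.916).

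Of 12 transcription factors 2 were lower, 1 was higher and 9 did not pass. Nr5a1, the steroidogenic factor, known to bind the promoters of steroidogenic genes, was at 248 ± 5.13 and 229 ± 2.93 CPM (log2 fold change -0.12, edgeR adjusted p = 3.45e-04) with no overlap. Nr5a2, a relative of Nr5a1 that is also a factor of pluripotent cells and of gut and liver epithelia, rose by 0.77 from a low level, 2.62 ± 0.403 to 4.45 ± 0.824 CPM (edgeR adjusted p = 6.03e-04).

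Of 12 signals of Leydig cell differentiation 1 rose and 11 did not pass. Notch1, a receptor gene also active in vessels, rose by 0.13 (edgeR adjusted p = 0.0212). This did not pass with library totals alone (0.0694), without WT replicate 2 (0.102) or 3 (0.0669) and without KO replicate 4 (0.126). In the list of luteinizing hormone signalling and hormone response 3 of 12 were lower. Prkar2b, which encodes a regulatory subunit of protein kinase A, was at 446 ± 11.1 and 399 ± 9.06 CPM, a log2 fold change of -0.16 (edgeR adjusted p = 7.06e-10). Prlr, the prolactin receptor gene, fell by 0.19 (adjusted p = 1.64e-05). Prkaca, the catalytic subunit gene, was lower by 0.16 (adjusted p = 0.0228), but that call was lost with DESeq2 (0.0815), without WT replicate 1 (0.0815), 3 (0.123) or 4 (0.0589) and without KO replicate 1 (0.0967), 2 (0.0678) or 4 (0.0693).

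A last list held 8 genes of the fetal Leydig cell beside the members, some of them also in the lists above. In it 3 of 8 were lower and 5 did not pass. Ren1, the renin gene, had the largest fall of the list, 175 ± 6.00 to 147 ± 3.15 CPM (SD, n = 4), a difference of -0.25 on the log2 scale (edgeR adjusted p = 6.95e-14), and the other fallers were Prlr and Nr5a1. The summed level of the list was 1277 to 1303 CPM with the WT label and 1192 to 1225 CPM with the KO label.

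**Figure D3:**
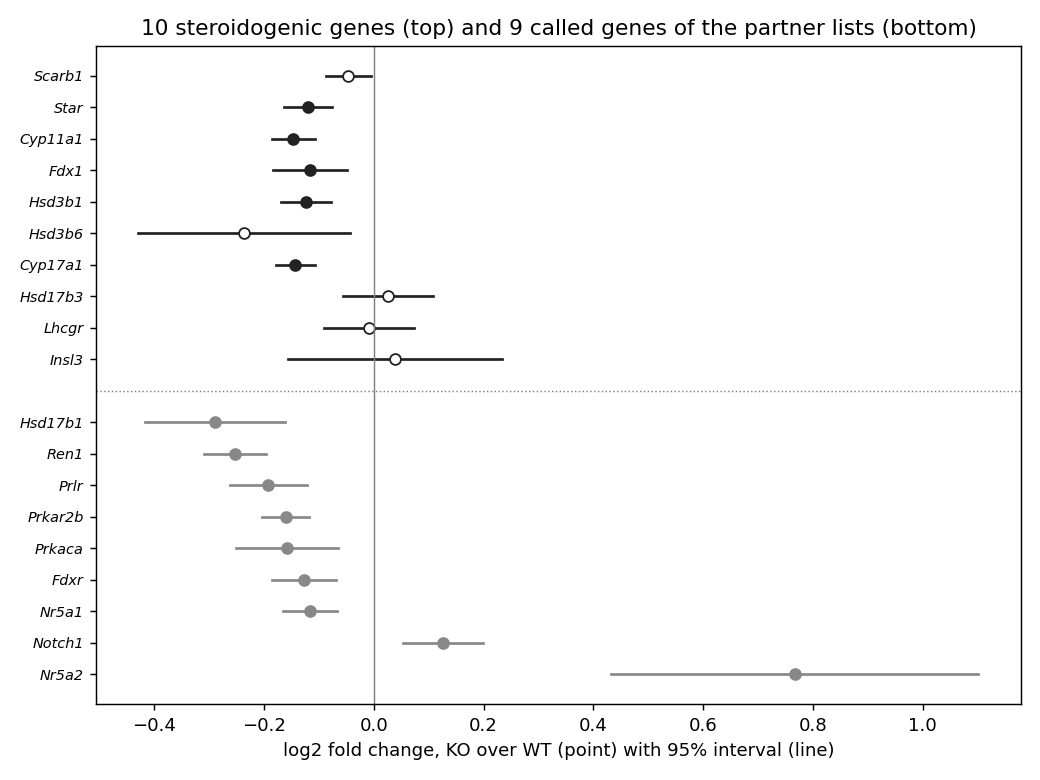
Log2 fold change, KO over WT, with its 95% interval, for the 10 members (top; filled points were called, open points were not) and 9 of the 10 called genes of the partner lists (bottom). Members that were called lie between -0.15 and -0.12, and Nr5a2 stands apart at 0.77.

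The fall was set beside markers of the other cells that a sort of testis cells could hold. The interstitial and adrenal-like lists share genes, Cyp11b1 among them, with the list of fetal Leydig cell genes above. Their sums are thus not fully separate from that list. Over all genes tested 2.8% were called lower and 2.35% higher, and of the more abundant genes 7.22% were called lower. Summed over the 10 members the level was 3627 to 3694 CPM with the WT label and 3350 to 3400 CPM with the KO label, a mean change of -7.77%. Sertoli cell markers were lower too: 4 of 12 fell, among them Clu at 281 ± 5.62 and 251 ± 2.82 CPM, and their sum was 812 to 824 CPM against 752 to 769 CPM (-6.86%). Amh was at 141 ± 4.80 and 140.3 ± 6.14 CPM (edgeR adjusted p = 0.950). None of 9 interstitial and peritubular markers passed in edgeR, 2 of them having an unadjusted p under 0.05 (none was called by DESeq2 or limma voom). Their sum, led by Col1a1 (2963 ± 41.7 and 2901 ± 69.3 CPM) and Col3a1 (2410 ± 38.8 and 2352 ± 14.7 CPM), was 6566 to 6628 CPM against 6367 to 6535 CPM (-2%). The adrenal-like steroid genes, led by Cyp11b1 and Cyp21a1, summed to 45.1 to 52.0 CPM against 43.8 to 47.9 CPM, which overlap. None of the 5 passed in edgeR, DESeq2 or limma voom, and 1 had an unadjusted p under 0.05. Their median log2 fold change was -0.15, with 4 of the 5 below 0.

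Germ-cell markers, 2 of 11 tested higher and 2 lower, summed to 204 to 224 CPM against 199 to 212 CPM. The sums of endothelial genes (3 of 7 higher) were 197 to 210 CPM against 219 to 229 CPM, and those of macrophage genes (0 of 4 tested called in edgeR, DESeq2 or limma voom, and 0 at an unadjusted p under 0.05) 12.2 to 13.8 CPM against 10.8 to 11.0 CPM. Larger differences were seen for erythroid genes, where 4 of 7 fell and the sum was 219.9 to 235 CPM against 91.7 to 96.6 CPM. All 10 tubular and duct epithelial genes rose, from a sum of 64.9 to 71.6 CPM to one of 113 to 127 CPM. No marker of these lists was at 0 in every library. The part of these cells in the fall of the steroidogenic genes was not tested.

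**Figure D4:**
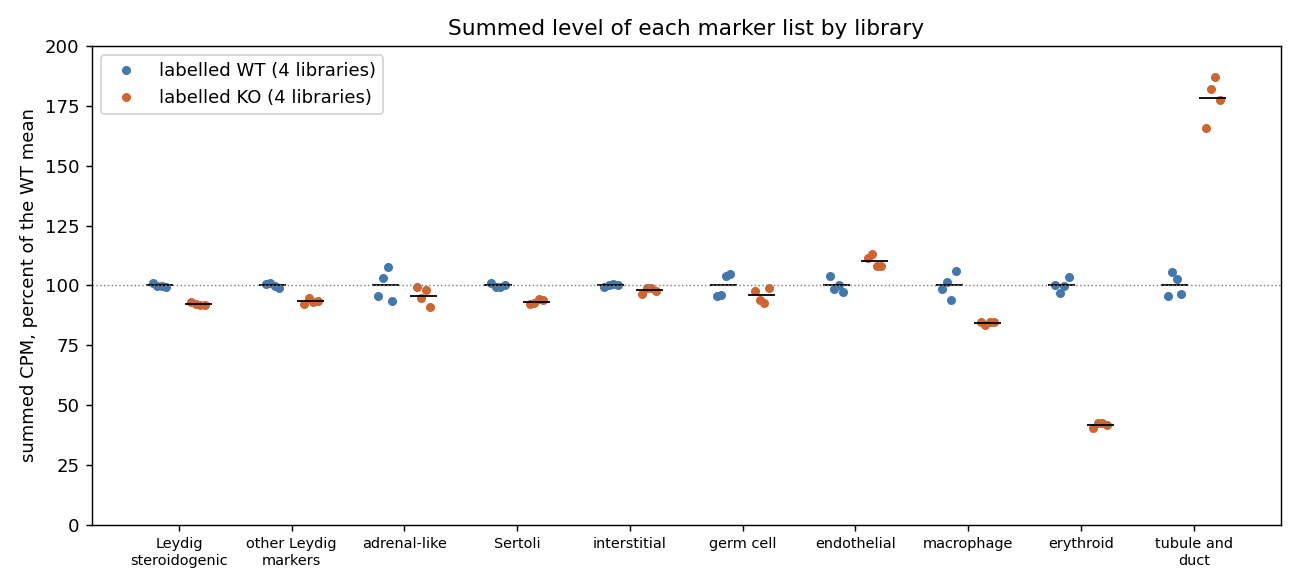
Summed CPM of each marker list in each library, as a percent of the mean of the 4 libraries labelled WT. Points are libraries (blue WT, orange KO) and black bars are group means. The steroidogenic sum changes by -7.77%, the Sertoli sum by -6.86%, the erythroid sum by -58.2% and the tubule and duct sum by 78.1%.

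Of the members' summed counts most genes took overlapping shares in both groups. Star made up 10.6 to 10.8% of the member counts with the WT label and 10.6 to 10.8% with the KO label, and Fdx1 2.81 to 2.86% and 2.77 to 2.88%. Cyp17a1 held 35.3 to 36.4% and 34.8 to 35.8%, and Hsd3b1 9.95 to 10.2% and 9.74 to 10.6%. Cyp11a1 took 19.7 to 20.3% with the WT label and slightly less, 19.4 to 19.7%, with the KO label, where the lowest WT value was 19.68% and the highest KO value 19.66%. Scarb1 took a larger share with the KO label, 16.9 to 17.1% against 15.8 to 16.4%, as did Hsd17b3, 1.86 to 2.04% against 1.68 to 1.80%. Such a share rises when the sum of the members falls more than the gene itself. How many of all genes tested would be apart when set against this sum was not counted. No library was low or high throughout: WT replicate 1 was above the median of its group for 8 of the 10 members and KO replicate 1 for 7, and the other libraries for 3 to 5.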

How the data were processed

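RNA was sequenced from 8 libraries, 4 labelled WT and 4 labelled KO, prepared with a stranded kit for very small amounts of total RNA, per the labels' protocols. The deposited table holds raw counts of reads per gene for 55487 genes. STAR 2.5.2b, Subread, featureCounts, DESeq2 and GRCm38 are named in the submitters' processing notes; their settings are not given in the sources used here. Gene symbols and positions came from the GENCODE M21 annotation, which held 55141 of the gene IDs.

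The counts were tested with edgeR 4.0.16 in R 4.3.3 (TMM scaling, filterByExpr, robust quasi-likelihood fit, Benjamini-Hochberg adjustment over 23190 genes, called at an adjusted p under 0.05). CPM values are TMM-scaled, and levels per kb use the exon length in the deposited table. Alternatives were DESeq2 1.42.0, limma 3.58.1 voom, other scalings and filters, a replicate block and leaving out each library, 17 in all. No replicate pair of a group agreed within sampling noise, so each library counts as 1. The text names all 10 members and the called genes of each partner list with the smallest p (4 at most). Where none was called, it names the 2 with the smallest p. Of the germ-cell, Sertoli, interstitial and adrenal-like marker lists it names genes with the highest CPM, and of the other marker lists none. Of the called partner genes, 1 is included in the counts and is not reported here by name. The members and lists were chosen with earlier results of these data known.

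The test was checked on simulated counts of 22837 genes. Of changes of 1.1-fold it found 14%, of 1.25-fold 50%, of 1.5-fold 88% and of 2-fold 98%, and 6 of 131 calls were false. The changed genes, 50 for each size, were drawn at random from low to high levels, with the lowest levels left out. These shares therefore do not tell how often a change would be found in genes as abundant as the called members. The counts were drawn from a model of the kind that the test assumes, so false calls may be more frequent in real counts.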

Additional observations from a re-analysis of the deposited data

Results flagged for a closer look

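Among 54 groups of 4 libraries checked for a library that stands apart, 1 was found. By chance the rule flags about 1 group in 20, so 1 of 54 is no more than chance gives. The flagged value was that of Cyp17a1 in KO replicate 2, at 1208 CPM, whereas the other libraries labelled KO had 1182 to 1185 CPM. The value lies below the lowest library labelled WT, 1304 CPM, and Cyp17a1 was called lower with and without it.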

How the results depend on the processing

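Star, Cyp11a1, Cyp17a1 and Hsd3b1 were lower and called under all 17 alternatives, and Hsd3b6, Hsd17b3, Insl3 and Lhcgr were called under none. Members called numbered 5, and 4 to 5 when 1 library was left out, 4 with no filter on low counts and 6 with limma voom. Genes called over the whole table numbered 1193 (649 lower, 544 higher), 785 with DESeq2 (412 lower, 373 higher) and 898 to 1040 when 1 library was left out. The partner lists held 10 called genes, 8 to 13 over the alternatives; the genes called higher in them numbered 2, but 1 with library totals alone and 1 to 2 when 1 library was left out. The sign of Insl3 turned without KO replicate 3; leaving out 1 library gave -0.0244 to 0.0943. Lhcgr turned to 1e-04 with upper-quartile scaling and to 0.0047, 0.0170, 0.0133 and 0.0018 without WT replicate 1, WT replicate 4, KO replicate 2 and KO replicate 4, with a range of -0.039 to 0.0170 when 1 library was left out. The cause was not tested. Replicate numbers did not pair the libraries (correlation of deviations between same-numbered libraries 0.014, 0.023, -0.013 and -0.014), and no library correlated best with its own number; with a replicate block 1249 genes, 5 members and 10 partner genes were called. Hsd3b6 and Insl3 had the fewest counts of the members, 159 to 239 and 163 to 234 per library, and the largest standard errors of the log2 fold change, 0.098 and 0.099, against 0.018 for Cyp17a1.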
